A study of Mus musculus with 9 samples.

Results

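The genes of cellular iron storage, uptake and export were followed in Hepa 1-6 cells, a mouse hepatoma line, after knockout of Usp5 or of Ythdf1. They are the 10 rows, of 53647 in the count table, whose symbol is Fth1, Ftl1, Tfrc, Slc40a1, Slc11a2, Trf, Hamp, Ireb2, Aco1 or Steap3. Of these, 9 had enough counts to be tested, and Hamp did not. Poly(A) RNA was sequenced from 3 groups of 3 samples: Usp5 knockout cells made with pLentiCRISPR-Usp5-sgRNA, Ythdf1 knockout cells made with CRISPR/Cas9/EGFP plasmids, and cells that carried a control guide (sgControl). Usp5 encodes a deubiquitinase and Ythdf1 a reader of N6-methyladenosine in mRNA, and the series was designed to find genes that respond alike to the loss of either. All groups were grown in DMEM with fetal bovine serum, so that no sample had iron added or withheld as far as the labels say. The knockout cells were single-cell clones obtained by serial dilution and checked by immunoblot. How many clones the 3 samples of a group represent is not stated, so a clone's own features and the knockout cannot be told apart. The control cells carry a guide but are not described as a clone.

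Cells take up iron bound to transferrin (Trf), the plasma iron carrier made mainly by hepatocytes, through the transferrin receptor (Tfrc). In the endosome the iron is reduced by Steap3, a metalloreductase, and passes to the cytosol through Slc11a2, the divalent metal transporter DMT1. Iron that is not used is stored in shells of ferritin heavy chain (Fth1) and light chain (Ftl1) or leaves the cell through ferroportin (Slc40a1), which the liver hormone hepcidin (Hamp) removes from the cell surface. The system is set largely after transcription by the iron regulatory proteins, encoded by Aco1 (IRP1, which doubles as cytosolic aconitase) and Ireb2 (IRP2). When iron is low they bind hairpins in mRNA called iron-responsive elements: at the 5′ end this blocks translation of ferritin and ferroportin mRNA, and in the 3′ UTR of Tfrc mRNA it slows decay. RNA levels therefore report on part of this control and not on the amount of protein.

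The hairpins are shown because some of the storage, uptake and export transcripts share them in sequence. Annotated mouse UTRs (GENCODE M21, GRCm38, not the GRCm39 build named for the counts) were searched on the transcript strand for the letters CNNNNNCAGTG. A match also needed 5 paired bases (Watson-Crick or G-T) between the bases after the first C and those that follow the loop. The matches lay in Fth1, Ftl1, Slc40a1 and Tfrc and are given here 5′ to 3′ with the unpaired C and the CAGTG of the loop in capitals.
Fth1 5′ UTR, chr19:9982733-9982759 (+): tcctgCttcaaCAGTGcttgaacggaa
Ftl1 5′ UTR, chr7:45459780-45459806 (-): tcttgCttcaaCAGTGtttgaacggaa
Slc40a1 5′ UTR, chr1:45925466-45925492 (-): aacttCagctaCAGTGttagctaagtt
Tfrc 3′ UTR, site 1, chr16:32631220-32631246 (+): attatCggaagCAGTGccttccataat
Tfrc 3′ UTR, site 2, chr16:32631599-32631625 (+): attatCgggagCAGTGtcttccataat
Tfrc 3′ UTR, site 3, chr16:32631664-32631690 (+): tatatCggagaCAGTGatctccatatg
Tfrc 3′ UTR, site 4, chr16:32631711-32631737 (+): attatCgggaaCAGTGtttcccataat
Both ferritin hairpins have the same upper 5′ arm. The bases in capitals are the same in every match because the search required them. In the Tfrc transcript 4 hairpins matched the search, with a common flank in sites 1, 2 and 4. Such matches were rare: 21 of 20596 annotated 5′ UTRs (0.102%) and 111 of 20760 3′ UTRs (0.535%) held one. Within windows as long as their own UTR, the share of genes with a match was 0.143% for Fth1, 0.073% for Ftl1, 0.181% for Slc40a1 and 1.09% for Tfrc. These shares count the gene itself, and for Fth1 the 1 match among 701 genes was its own. The Fth1 transcript searched, Fth1-203, has a 5′ UTR of 795 bases with the unpaired C at base 664. No match to these letters together with the 5 paired bases was found in the UTRs of Slc11a2, Trf, Hamp, Ireb2, Aco1 or Steap3 in the transcripts searched. The search took 1 transcript per gene and a strict pattern. A hairpin that departs from it, or lies in another transcript, would be missed, so the matches are not a full count.

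The libraries held between 24760877 and 42989715 counts, and the 10 iron genes took between 0.320% and 0.499% of them. Values are CPM, the counts of a gene scaled to the library's TMM-normalised total over the tested genes, and fold changes are on the log2 scale from edgeR's quasi-likelihood test. A gene was called when its p, adjusted by Benjamini-Hochberg over 13661 genes, was under 0.05. The labels do not say that samples came from separate cultures, so that the p-values rest on the spread between samples that may be technical repeats. The knocked-out genes followed the labels: Usp5 stood at 110 to 123 CPM in the Usp5 knockout, against 184 to 234 CPM in the control, and Ythdf1 at 45.7 to 49.9 CPM in the Ythdf1 knockout, against 181 to 195 CPM in the control. Mitochondrially encoded transcripts took 5.91% of the counts of control replicate 3, against 2.33% and 2.32% in control replicates 1 and 2. The share was 3.67%, 6.14% and 4.04% in the Usp5 knockout, beside 3.90%, 4.96% and 3.51% in the Ythdf1 knockout. Of the hepatocyte markers, Alb, Afp, Apob, Hnf4a and Fgb were present in every library, while Ttr, Apoa1 and Apoa2 stayed at or below 1.85 CPM. Of the macrophage and Kupffer cell markers, Timd4, Vsig4 and C1qa were at 0 counts throughout, and the 12 markers together came to 10.0 to 11.4 CPM in the Usp5 knockout, 14.96 to 16.6 CPM in the Ythdf1 knockout and 12.8 to 15.2 CPM in the control, mostly Csf1r and Cd68. The 10 erythroid markers together came to at most 4.55 CPM, mostly Epor.

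Loss of Ythdf1 went with a change in 7 of the 9 tested iron genes. Transcripts of the storage proteins Fth1 and Ftl1 and of the carrier Trf rose, while those of the receptor Tfrc, the transporters Slc40a1 and Slc11a2 and the regulator Ireb2 fell. Ireb2 and Tfrc fell the most, to 43.2% and 43.6% of the control level. In bulk RNA, fewer cells that express a gene and less of its RNA per cell cannot be told apart. The 3 rises and 4 falls came in a comparison in which 46.5% of all tested genes were called (23.7% higher and 22.8% lower). The median log2 fold change of the 9 genes was 0.15, beside 0.02 for all tested genes. After loss of Usp5, 1 of the 9 rose (Fth1) and 2 fell (Slc11a2 and Ireb2), where 19.8% of all genes were called (9.96% higher and 9.8% lower), and the median was -0.09 beside -0.01. In the Ythdf1 knockout 8 of the 9 genes did not overlap with the control in CPM, beside 57.1% of all tested genes, and in the Usp5 knockout 3 of the 9, beside 33.2%. Fth1, Slc11a2 and Ireb2 were called in the same direction in both knockouts. Both comparisons use the same 3 control samples, so this agreement is not independent.

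**Figure D1:**
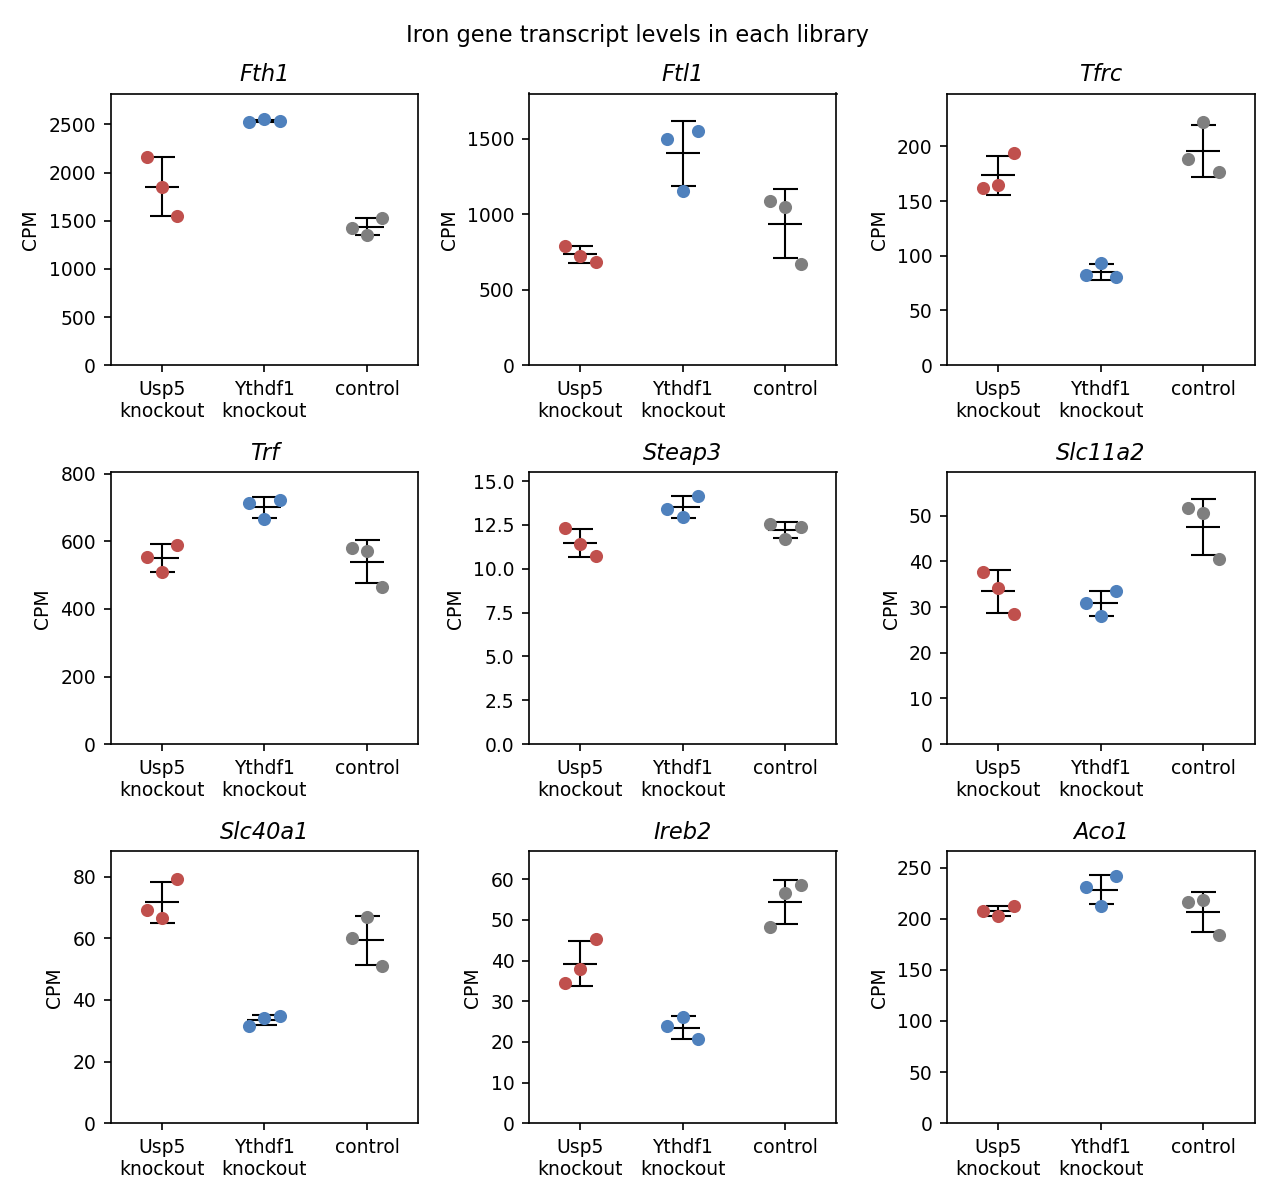
TMM-scaled CPM of each of the 9 tested iron genes in the 9 samples, with Usp5 knockout, Ythdf1 knockout and control from left to right; points are samples and bars mark the mean and SD of 3. In the Ythdf1 knockout every Fth1 point lies above the control points and every Tfrc, Slc40a1, Slc11a2 and Ireb2 point lies below them.

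Fth1, the ferritin subunit with ferroxidase activity, rose in both knockouts. It was measured at 2165, 1854 and 1548 CPM in the Usp5 knockout, 2524, 2552 and 2534 CPM in the Ythdf1 knockout and 1428, 1352 and 1527 CPM in the control. All knockout samples lay above all controls, but the lowest Usp5 knockout sample was only just above the highest control. The Ythdf1 knockout averaged 2537 ± 14.5 CPM, against 1436 ± 87.9 CPM in the control (SD, n = 3 each), a log2 fold change of 0.82 ± 0.12 (SE; edgeR quasi-likelihood test, adjusted p = 0.000347). The Usp5 knockout averaged 1856 ± 309 CPM (SD, n = 3), a log2 fold change of 0.37 ± 0.12 over the control (edgeR adjusted p = 0.0488). That call sits at the threshold. It held in 7 of 18 alternative settings, and without Usp5 knockout replicate 1 the log2 fold change was 0.24 (edgeR adjusted p = 0.132). Leaving out control replicate 1 or 2, Usp5 knockout replicate 2 or any Ythdf1 knockout replicate also ended it, with log2 fold changes of 0.33 to 0.37 (adjusted p of 0.0633 to 0.165). With smooth trends on GC content and gene length removed, the Fth1 rise in the Ythdf1 knockout was 0.53 (edgeR adjusted p = 0.0016).

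Ftl1, the ferritin light chain that helps iron mineralise inside the shell, rose in the Ythdf1 knockout and did not pass the test in the Usp5 knockout. It stood at 792, 725 and 686 CPM in the Usp5 knockout, 1502, 1156 and 1553 CPM in the Ythdf1 knockout and 1089, 1050.2 and 674 CPM in the control. Control replicate 3 stood well below the other controls and inside the range of the Usp5 knockout. The log2 fold change was 0.58 ± 0.18 in the Ythdf1 knockout (SE; edgeR adjusted p = 0.0212). It was -0.35 ± 0.18 in the Usp5 knockout (edgeR adjusted p = 0.189), with a 95% interval of -0.75 to 0.04. Without control replicate 3 the Usp5 knockout value was -0.54 (edgeR adjusted p = 0.00755). The library with the lowest Ftl1 was also the one with the highest mitochondrial share in the control (replicate 3) and in the Ythdf1 knockout (replicate 2), but not in the Usp5 knockout. Its part in the result was not tested. The Ythdf1 knockout call was lost without Ythdf1 knockout replicate 1 (0.50, adjusted p = 0.0919) or replicate 3 (0.47, adjusted p = 0.1005), with scaling by library size alone (0.43, adjusted p = 0.087) and in a fit of only the groups compared (0.54, adjusted p = 0.0533). Removing trends on GC content and length left 0.16 (edgeR adjusted p = 0.299); Ftl1 has a GC content of 57.6%, and 87.9% of tested genes have a lower one. Rows named like ferritin genes could share its reads: 3 other Ftl rows held 0.712% to 1.48% of the Ftl1 count per library, and 12 other Fth rows at most 0.00859% of the Fth1 count.

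Among the uptake genes, the transferrin receptor fell in the Ythdf1 knockout. Tfrc counted 162, 165 and 194 CPM in the Usp5 knockout, 82.1, 93.6 and 80.4 CPM in the Ythdf1 knockout and 189, 223 and 176 CPM in the control. Every Ythdf1 knockout sample was below every sample of the other groups, while the Usp5 knockout overlapped the control. The mean was 85.4 ± 7.18 CPM in the Ythdf1 knockout, against 196 ± 23.96 CPM in the control (SD, n = 3 each), a log2 fold change of -1.20 ± 0.11 (SE; edgeR adjusted p = 3.39e-05). For the Usp5 knockout it was -0.17 ± 0.11 (edgeR adjusted p = 0.300), with a 95% interval of -0.42 to 0.07. Tfrc is poor in GC (42.1%, with 7.80% of tested genes lower), and with trends on GC content and length removed the log2 fold change in the Ythdf1 knockout was -0.77 (edgeR adjusted p = 0.000835).

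Slc11a2, the endosomal metal transporter, fell in both knockouts. Its values were 37.6, 34.3 and 28.4 CPM in the Usp5 knockout, 30.9, 28.03 and 33.5 CPM in the Ythdf1 knockout and 51.6, 50.6 and 40.5 CPM in the control. All 6 knockout samples lay below all 3 controls, and the knockouts overlapped each other. The log2 fold change was -0.51 ± 0.13 in the Usp5 knockout (edgeR adjusted p = 0.0203) and -0.63 ± 0.13 in the Ythdf1 knockout (edgeR adjusted p = 0.00287). The Usp5 knockout call was lost without control replicate 1 (-0.45, adjusted p = 0.0718), control replicate 2 (-0.46, adjusted p = 0.0816) or Usp5 knockout replicate 2 (-0.53, adjusted p = 0.0583). The Ythdf1 knockout call held in all 18 alternatives. Between the knockouts the difference was 0.12 ± 0.13 for Usp5 over Ythdf1 (edgeR adjusted p = 0.468), with a 95% interval of -0.17 to 0.41.

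Trf rose in the Ythdf1 knockout. It was measured at 554, 508 and 590 CPM in the Usp5 knockout, 714, 665 and 721 CPM in the Ythdf1 knockout and 581, 571 and 466 CPM in the control. The Ythdf1 knockout samples were all above the rest, and the Usp5 knockout and control overlapped. The log2 fold change was 0.38 ± 0.10 in the Ythdf1 knockout (SE; edgeR adjusted p = 0.0123) and 0.03 ± 0.10 in the Usp5 knockout (edgeR adjusted p = 0.862; 95% interval -0.20 to 0.26). The rise lost its call without Ythdf1 knockout replicate 1 (0.33, adjusted p = 0.0706) or replicate 3 (0.32, adjusted p = 0.0735), and when samples were scaled by library size alone (0.23, adjusted p = 0.147). The 10 hepatocyte markers, summed, also differed: 2601 to 2942 CPM in the Usp5 knockout, 3381 to 3681 CPM in the Ythdf1 knockout and 2099 to 2261 CPM in the control. Their part in the Trf result was not tested.

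Steap3 did not pass the test in either knockout. It counted 12.3, 11.4 and 10.7 CPM in the Usp5 knockout, 13.4, 12.9 and 14.2 CPM in the Ythdf1 knockout and 12.5, 11.7 and 12.4 CPM in the control. The Ythdf1 knockout samples lay above the controls by a small margin, and the Usp5 knockout overlapped them. The log2 fold change was 0.15 ± 0.09 in the Ythdf1 knockout (edgeR adjusted p = 0.22; 95% interval -0.06 to 0.35) and -0.09 ± 0.09 in the Usp5 knockout (edgeR adjusted p = 0.561; 95% interval -0.29 to 0.12).

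On the export side, ferroportin went in the same direction as Tfrc in the Ythdf1 knockout. Slc40a1 stood at 69.1, 66.7 and 79.2 CPM in the Usp5 knockout, 31.5, 34.2 and 34.7 CPM in the Ythdf1 knockout and 60.05, 67.0 and 51.2 CPM in the control. The Ythdf1 knockout was below both other groups in every sample. Its mean was 33.5 ± 1.70 CPM, against 59.4 ± 7.92 CPM in the control (SD, n = 3 each), and the log2 fold change was -0.83 ± 0.11 (SE; edgeR adjusted p = 0.000238). For the Usp5 knockout the value was 0.27 ± 0.11 (edgeR adjusted p = 0.106), with a 95% interval, not adjusted for the number of genes, of 0.03 to 0.51. Hamp had 0 counts over the 3 Usp5 knockout libraries, 3 over the Ythdf1 knockout libraries and 2 over the control libraries. The 0 in the Usp5 knockout allows a level of up to 0.0307 CPM (3 counts over the group, counting error only). Hamp was thus near 0 in all 3 groups, and a difference at so low a level could not be resolved at this depth.

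Of the iron regulatory proteins, Ireb2 fell in both knockouts and Aco1 passed the test in neither. Ireb2 was measured at 34.4, 37.96 and 45.2 CPM in the Usp5 knockout, 23.98, 26.0 and 20.6 CPM in the Ythdf1 knockout and 48.3, 56.6 and 58.5 CPM in the control. The groups did not overlap at any point, with the Ythdf1 knockout lowest and the control highest. The log2 fold change was -0.48 ± 0.13 in the Usp5 knockout (edgeR adjusted p = 0.0247) and -1.21 ± 0.13 in the Ythdf1 knockout (edgeR adjusted p = 6.77e-05). The Usp5 knockout call was lost without control replicate 2 (-0.45, adjusted p = 0.0901), Usp5 knockout replicate 1 (-0.39, adjusted p = 0.0878) or Usp5 knockout replicate 2 (-0.45, adjusted p = 0.0958). Ireb2 has one of the lowest GC contents among the tested genes (39.7%, with 2.88% lower). With trends on GC content and length removed its log2 fold change was -0.34 in the Usp5 knockout (edgeR adjusted p = 0.0169) and -0.69 in the Ythdf1 knockout (edgeR adjusted p = 0.000192).

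Aco1 stood at 208, 202 and 213 CPM in the Usp5 knockout, 231, 213 and 242 CPM in the Ythdf1 knockout and 217, 219 and 184 CPM in the control. Both knockouts overlapped the control, and the highest Usp5 knockout sample (212.50) lay just below the lowest Ythdf1 knockout sample (212.86). The log2 fold change was 0.15 ± 0.09 in the Ythdf1 knockout (edgeR adjusted p = 0.196; 95% interval -0.05 to 0.34) and 0.01 ± 0.09 in the Usp5 knockout (edgeR adjusted p = 0.965; 95% interval -0.19 to 0.20). With trends on GC content and length removed, the Ythdf1 knockout value was 0.30 and passed (edgeR adjusted p = 0.0328).

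**Figure D2:**
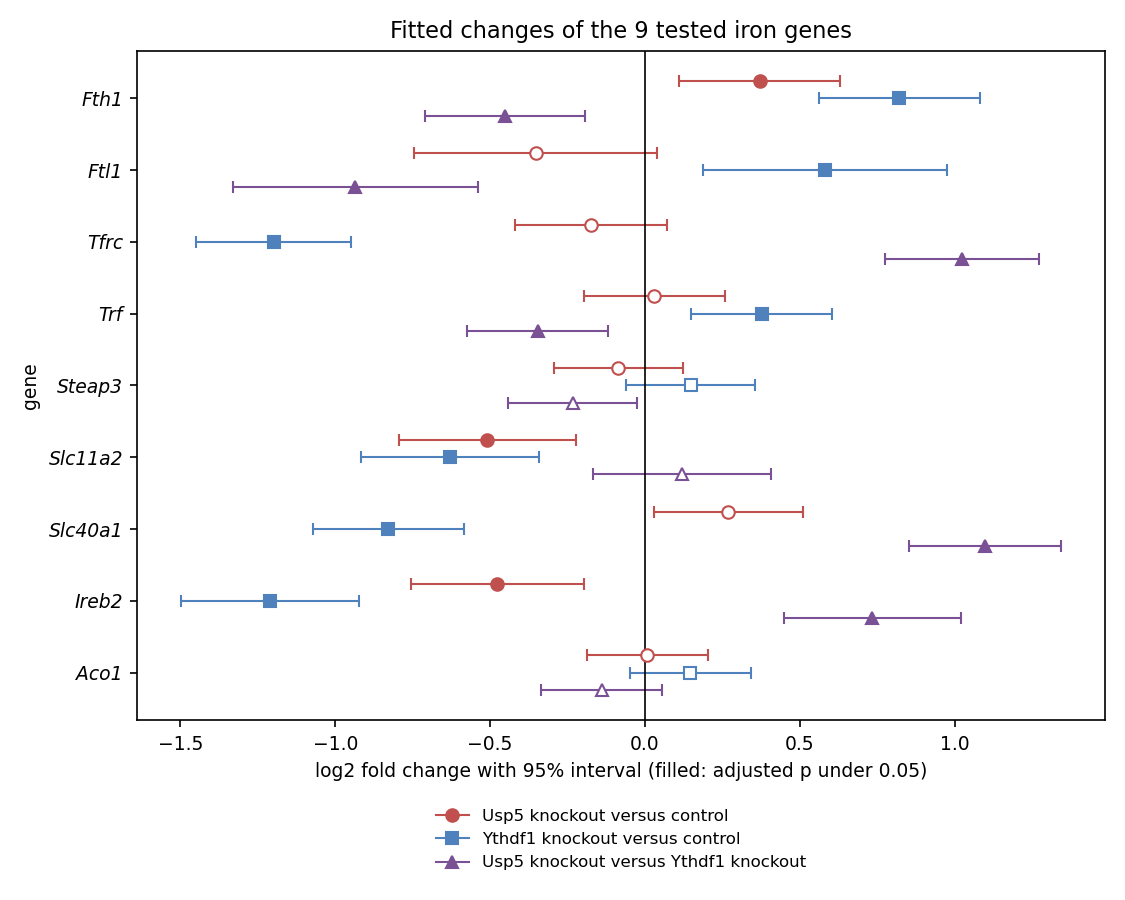
Log2 fold changes of the 9 tested iron genes with 95% intervals, for Usp5 knockout over control, Ythdf1 knockout over control and Usp5 over Ythdf1 knockout; filled points were called. Tfrc and Ireb2 lie near -1.2 in the Ythdf1 knockout, while no interval of the Usp5 knockout reaches that far.

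Set against each other, the knockouts differed in 6 of the 9 tested genes. The Usp5 knockout was higher than the Ythdf1 knockout in Slc40a1, Tfrc and Ireb2 and lower in Ftl1, Fth1 and Trf, where 48.5% of all tested genes were called (23.3% higher and 25.2% lower). No overlap between the knockouts was seen in 8 of the 9, beside 59% of all tested genes. The largest difference was in ferroportin: Slc40a1 averaged 71.7 ± 6.68 CPM in the Usp5 knockout, against 33.5 ± 1.70 CPM in the Ythdf1 knockout, a log2 difference of 1.10 ± 0.11 (edgeR adjusted p = 3.71e-05). Tfrc differed by 1.02 ± 0.11 (edgeR adjusted p = 6.19e-05) and Ireb2 by 0.73 ± 0.13 (edgeR adjusted p = 0.00109). The ferritin light chain averaged 734 ± 53.9 CPM in the Usp5 knockout, against 1404 ± 216 CPM in the Ythdf1 knockout (SD, n = 3 each), a log2 difference of -0.93 ± 0.18 (edgeR adjusted p = 0.00182). The heavy chain differed by -0.45 ± 0.12 (edgeR adjusted p = 0.00948) and Trf by -0.35 ± 0.10 (edgeR adjusted p = 0.018). With trends on GC content and length removed, neither of these last calls held (Fth1 -0.22, adjusted p = 0.0892; Trf -0.20, adjusted p = 0.085), the Ftl1 difference was -0.50 (edgeR adjusted p = 0.00557) and the Ireb2 difference 0.35 (edgeR adjusted p = 0.00825). The Trf call was also lost without replicate 1 or 2 of the Usp5 knockout or replicate 1 or 3 of the Ythdf1 knockout (-0.32 to -0.26, adjusted p of 0.0595 to 0.109). Steap3 missed the threshold (-0.23 ± 0.09, edgeR adjusted p = 0.0625).

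**Figure D3:**
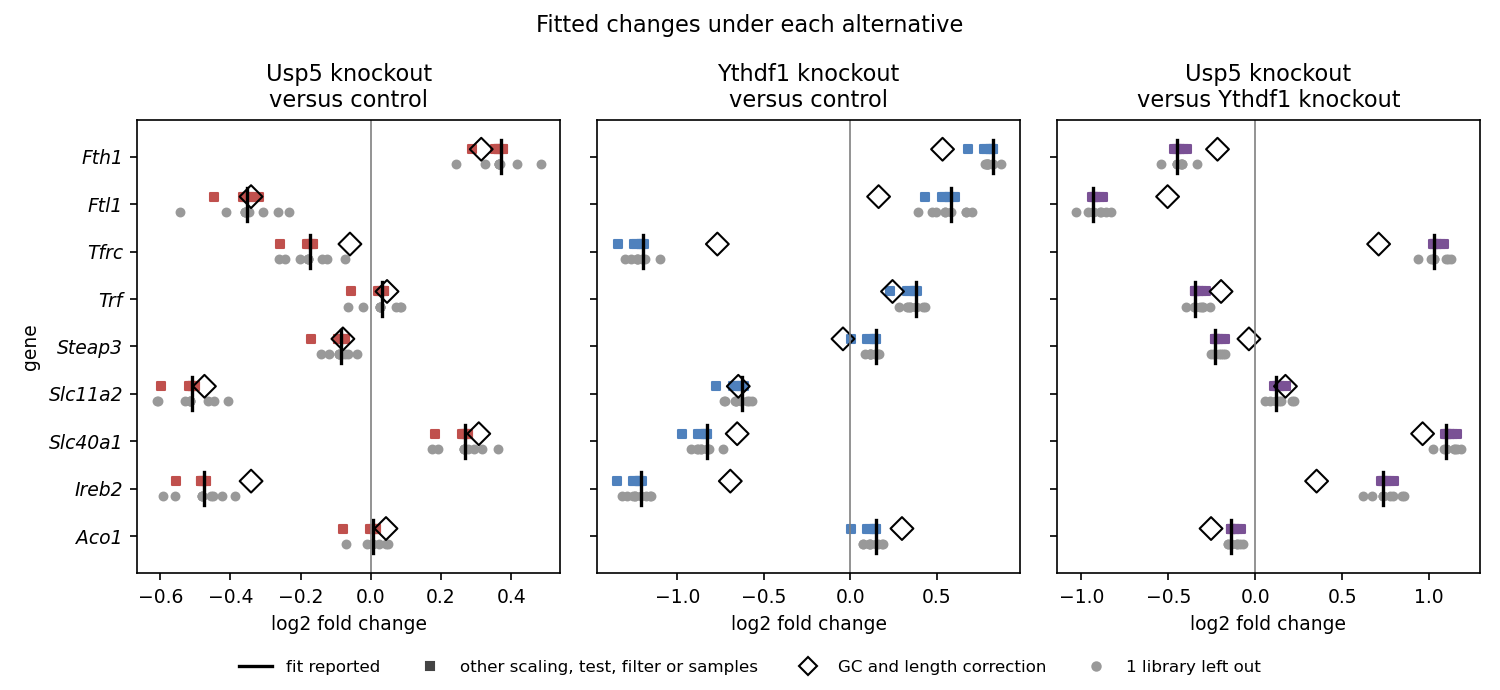
Log2 fold changes of the iron genes in the analysis as reported and under the alternative settings, one panel per comparison; black bars are the reported values, coloured squares other scalings, tests, filters or sample sets, diamonds the GC and length correction and grey points fits without 1 library. In the Ythdf1 knockout Fth1 stays above 0 and Tfrc, Slc40a1, Slc11a2 and Ireb2 stay below 0 in every setting shown.

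Ratios of 2 transcripts within a library do not depend on how libraries are scaled, and 4 were computed after the counts had been seen. The ratios were not corrected for trends on GC content and length. GC content is 52.2% for Fth1 and 42.1% for Tfrc, and 39.7% for Ireb2 and 49.2% for Aco1. The part of these trends in the ratios was not tested. The count of Fth1 per count of Tfrc, storage over uptake, was 13.4, 11.2 and 7.97 in the Usp5 knockout, 30.7, 27.3 and 31.5 in the Ythdf1 knockout and 7.57, 6.07 and 8.65 in the control. The Ythdf1 knockout stood apart from both other groups, which overlapped. Ireb2 per Aco1 was 0.165, 0.188 and 0.213 in the Usp5 knockout, 0.104, 0.122 and 0.0852 in the Ythdf1 knockout and 0.223, 0.259 and 0.318 in the control, with no overlap among the groups. Export over uptake, Slc40a1 per Tfrc, was 0.426, 0.404 and 0.408 in the Usp5 knockout, 0.384, 0.366 and 0.431 in the Ythdf1 knockout and 0.318, 0.301 and 0.290 in the control. Both knockouts were above the control in this ratio and overlapped each other. The heavy to light chain ratio, Fth1 per Ftl1, was 2.73, 2.56 and 2.26 in the Usp5 knockout, 1.68, 2.21 and 1.63 in the Ythdf1 knockout and 1.31, 1.29 and 2.27 in the control. Control replicate 3 overlapped the Usp5 knockout here. With 3 samples against 3, a two-sided exact permutation test cannot give a p below 0.1, so none of the 12 comparisons of ratios could pass 0.05.

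**Figure D4:**
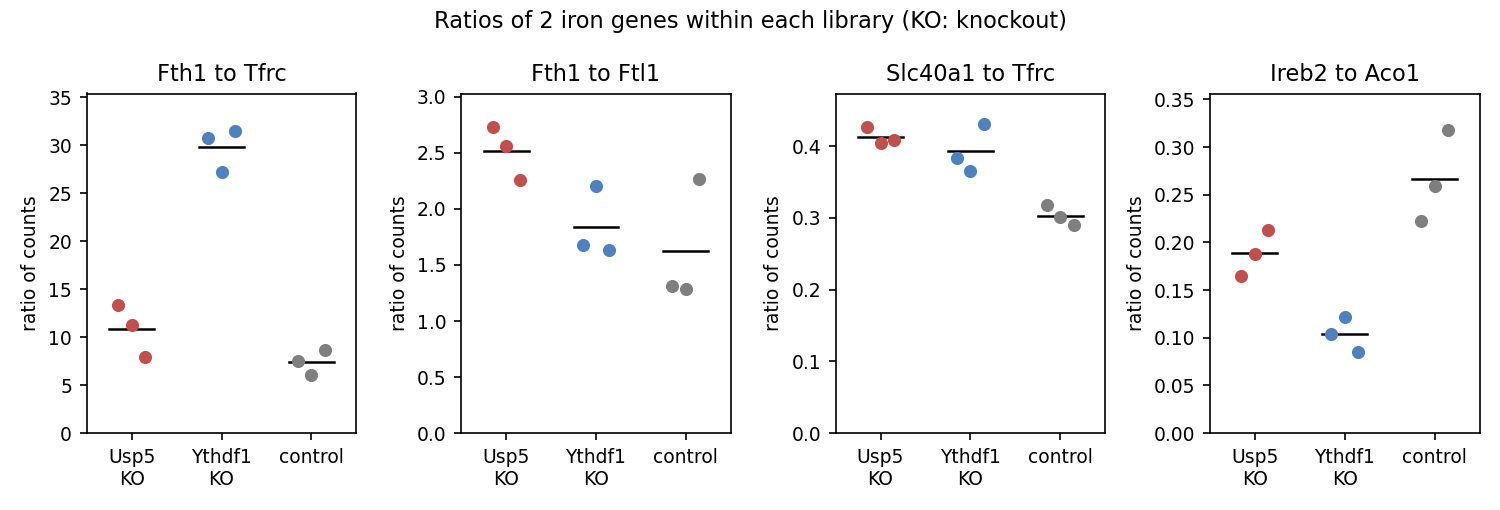
Ratios of counts between iron genes in each library (linear axes from 0), with Usp5 knockout, Ythdf1 knockout and control (KO: knockout) from left to right; points are libraries and bars are means of 3. Fth1 per Tfrc is 27.3 to 31.5 in the Ythdf1 knockout and at most 13.4 elsewhere.

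Levels of different genes were compared per length, as length-scaled transcript shares (TPM) computed from the counts and the deposited gene lengths. Ferritin dominated. Fth1 averaged 4174 TPM in the Usp5 knockout, 5177 TPM in the Ythdf1 knockout and 3517 TPM in the control, which placed it 18th, 16th and 21st among all genes of these groups. Ftl1 followed with 1405, 2424 and 1964 TPM, then Trf with 526, 601 and 559 TPM, in the same group order. Below them came Aco1 at 101, 99.7 and 109 TPM and Tfrc at 73.0, 32.2 and 89.1 TPM, whose ranges overlapped in the control. Slc40a1 averaged 39.8, 16.7 and 35.8 TPM and Slc11a2 20.1, 16.8 and 31.3 TPM. These transporters overlapped in the Ythdf1 knockout and in the control. Ireb2 averaged 12.7, 6.84 and 19.0 TPM and Steap3 8.45, 8.99 and 9.76 TPM, so that Ireb2 was below Steap3 only in the Ythdf1 knockout. TPM are not TMM-scaled and are used here for the order of genes within a group, not for change between groups.

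The other genes of iron metabolism were taken as 6 lists with 99 genes in the table, of which 85 were tested. In the Usp5 knockout 8 rose and 14 fell, and in the Ythdf1 knockout 30 rose and 16 fell. The share called was 25.9% in the Usp5 knockout, beside 19.8% of all tested genes, and 54.1% in the Ythdf1 knockout, beside 46.5%. Between the knockouts 16 were higher and 40 lower in the Usp5 knockout, 65.9% of the list genes, beside 48.5% of all tested genes. The median log2 fold changes were -0.04, 0.10 and -0.27, beside -0.01, 0.02 and 0.00028 for all tested genes. With trends on GC content and length removed, most list medians between the knockouts moved toward 0. They went from -0.28 to 0.04 for heme synthesis, -0.23 to 0.02 for heme breakdown and -0.43 to -0.22 for iron-sulfur clusters. Transport and handling went from -0.29 to -0.19, and the other iron-responsive element transcripts from 0.36 to 0.17. The hepcidin regulators stayed at -0.02. Without control replicate 3, 34 list genes were called in the Usp5 knockout in place of 22. The 26 symbols of the iron-sulfur cluster list had 28 rows in the count table, and only the first row of each symbol was used.

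**Figure D5:**
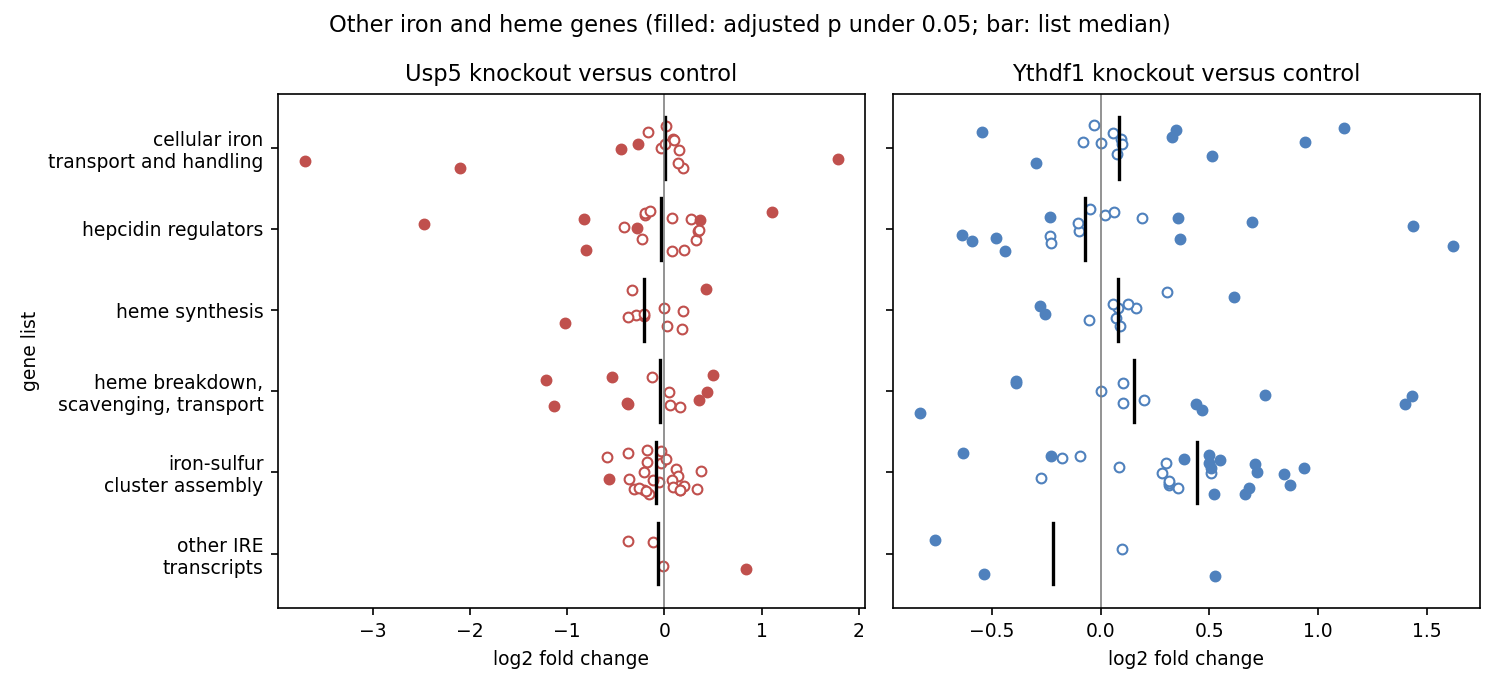
Log2 fold changes of the 85 tested list genes by list, for Usp5 knockout over control (left) and Ythdf1 knockout over control (right, on its own scale); each point is a gene, filled where called, the bar is the list median, and vertical spread within a list only separates points. The iron-sulfur cluster list has 13 filled points above 0 in the Ythdf1 knockout and 0 in the Usp5 knockout.

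Genes that build iron-sulfur clusters, the main mitochondrial use of iron besides heme, had 13 of 26 members higher and 2 lower in the Ythdf1 knockout, beside 23.7% and 22.8% of all genes, and a median log2 fold change of 0.44. For the Usp5 knockout these counts were 0 higher and 1 lower, beside 9.96% and 9.8% of all genes, with a median of -0.08. Gfer, a sulfhydryl oxidase of the mitochondrial intermembrane space, averaged 77.2 ± 8.17 CPM in the Ythdf1 knockout, against 40.4 ± 4.48 CPM in the control (log2 fold change 0.93 ± 0.17, edgeR adjusted p = 0.00166). Ciao3, of the cytosolic assembly machinery, averaged 34.5 ± 2.12 CPM, against 18.9 ± 0.90 CPM in the control (0.87 ± 0.09, edgeR adjusted p = 6.5e-05). Ciao2a, also of the cytosolic machinery, fell by 0.23 ± 0.08 (edgeR adjusted p = 0.0456). With trends on GC content and length removed, 10 of the 26 rose and 0 fell, with a median of 0.24, and Ciao2a (-0.10) was not called. The Ciao2a call was also lost when any of 5 samples was left out. The 1 gene that fell in the Usp5 knockout, Fdx1, a mitochondrial ferredoxin, had a log2 fold change of -0.56 ± 0.17 (edgeR adjusted p = 0.0423). Its call was lost when any of 7 samples was left out (-0.57 to -0.47), all but Usp5 knockout replicate 1 and control replicate 3.

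In heme breakdown, scavenging and transport, 3 of 12 tested genes rose and 4 fell in the Usp5 knockout, and 5 rose and 3 fell in the Ythdf1 knockout. That is 58.3% called in the Usp5 knockout, beside 19.8% of all tested genes, and 66.7% in the Ythdf1 knockout, beside 46.5%. Hmox1, heme oxygenase 1, which frees iron from heme, moved in opposite directions: it averaged 25.7 ± 0.209 CPM in the Usp5 knockout, 149 ± 5.39 CPM in the Ythdf1 knockout and 56.4 ± 3.18 CPM in the control (SD, n = 3 each). The log2 fold changes were -1.13 ± 0.07 in the Usp5 knockout (edgeR adjusted p = 4.12e-06) and 1.40 ± 0.07 in the Ythdf1 knockout (edgeR adjusted p = 6.79e-07), and the Usp5 knockout was 2.53 ± 0.07 lower than the Ythdf1 knockout on the log2 scale (log2 difference -2.53, edgeR adjusted p = 1.36e-08). Hpx, the plasma heme binder hemopexin, rose by 1.43 ± 0.23 in the Ythdf1 knockout (edgeR adjusted p = 0.000736). Flvcr1, a heme and choline transporter, fell there by 0.83 ± 0.09 (edgeR adjusted p = 9.92e-05), and by 0.53 with trends on GC content and length removed (edgeR adjusted p = 0.000379). Abcg2, an efflux pump that carries heme and porphyrins, fell by 1.21 ± 0.09 in the Usp5 knockout (edgeR adjusted p = 1.62e-05) and by 0.39 ± 0.09 in the Ythdf1 knockout (edgeR adjusted p = 0.00599), where the correction for GC content and length left -0.11 and no call. Flvcr2 (0.50 ± 0.11) and Blvrb, a biliverdin reductase (0.44 ± 0.09), rose in the Usp5 knockout (edgeR adjusted p = 0.00986 and 0.00643). Both were also called higher in the Ythdf1 knockout, at 0.44 ± 0.11 and 0.75 ± 0.09 (edgeR adjusted p = 0.00766 and 0.000115). Blvrb was lower in the Usp5 knockout than in the Ythdf1 knockout (log2 difference -0.32 ± 0.09, edgeR adjusted p = 0.0126). Flvcr1 was called lower in the Usp5 knockout too (-0.38 ± 0.09, edgeR adjusted p = 0.0175).

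Of 14 tested genes of iron transport and handling, 1 rose and 4 fell in the Usp5 knockout, and 5 rose and 2 fell in the Ythdf1 knockout. The share called was thus 35.7% in the Usp5 knockout (19.8% of all tested genes) and 50% in the Ythdf1 knockout (46.5% of all tested genes). Slc39a8, a zinc, manganese and iron importer (ZIP8), averaged 72.9 ± 5.71 CPM in the Usp5 knockout, against 21.2 ± 2.76 CPM in the control (log2 fold change 1.79 ± 0.11, edgeR adjusted p = 4.67e-06). Cp, the ferroxidase ceruloplasmin that loads exported iron onto transferrin, fell there to 4.62 ± 0.314 CPM, against 19.9 ± 2.17 CPM in the control (-2.10 ± 0.11, edgeR adjusted p = 1.89e-06). In the Ythdf1 knockout Cp fell by 0.30 ± 0.11 (edgeR adjusted p = 0.0431), but the correction for GC content and length gave 0.13 (edgeR adjusted p = 0.351), and the call was lost without control replicate 2 (-0.34) or 3 (-0.21) or Ythdf1 knockout replicate 1 (-0.28) or 2 (-0.33). Steap1, a metalloreductase relative of Steap3, fell by 0.45 ± 0.11 in the Usp5 knockout (edgeR adjusted p = 0.0178). That call was lost without replicate 1 or 2 of either the Usp5 knockout or the control (-0.44 to -0.35). In the Ythdf1 knockout Steap1 was called higher (0.35 ± 0.11, edgeR adjusted p = 0.0236). Fbxl5, the iron-sensing subunit of the ligase that marks Ireb2 protein for degradation, fell by 0.55 ± 0.10 in the Ythdf1 knockout (edgeR adjusted p = 0.00183), and by 0.21 with no call after the correction for GC content and length. Bdh2, a dehydrogenase linked to a mammalian siderophore, and Mcoln1, a lysosomal cation channel, rose there by 1.12 ± 0.20 (edgeR adjusted p = 0.00134) and 0.94 ± 0.10 (edgeR adjusted p = 6.52e-05).

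Among 18 tested regulators of hepcidin, 2 rose and 4 fell in the Usp5 knockout, and 5 rose and 5 fell in the Ythdf1 knockout. Called were 33.3% in the Usp5 knockout, beside 19.8% of all tested genes, and 55.6% in the Ythdf1 knockout, beside 46.5%. Hjv, Tfr2 and Tmprss6, which act on Hamp in hepatocytes, had too few counts to be tested. Atoh8, a transcription factor that activates Hamp, rose in both: it averaged 104 ± 6.61 CPM in the Usp5 knockout, 131 ± 2.7 CPM in the Ythdf1 knockout and 48.4 ± 10.8 CPM in the control, with log2 fold changes of 1.11 ± 0.13 (edgeR adjusted p = 0.000332) in the Usp5 knockout and 1.44 ± 0.14 (edgeR adjusted p = 3.47e-05) in the Ythdf1 knockout. In the Usp5 knockout the BMP type I receptor Acvr1 rose by 0.37 ± 0.08 (edgeR adjusted p = 0.00943). Hfe, a partner of the transferrin receptors, fell there by 0.83 ± 0.16 (edgeR adjusted p = 0.00524). The interleukin 6 co-receptor Il6st fell there by 0.80 ± 0.07 (edgeR adjusted p = 5.44e-05). Acvr1 was also called higher in the Ythdf1 knockout (0.36 ± 0.08, edgeR adjusted p = 0.00423). Il6st was also called lower there (-0.23 ± 0.07, edgeR adjusted p = 0.0258), and Hfe was not called (-0.10, edgeR adjusted p = 0.637). In the Ythdf1 knockout Erfe, the hormone erythroferrone, rose by 0.69 ± 0.12 (edgeR adjusted p = 0.000861), and the BMP receptor Bmpr1a fell by 0.64 ± 0.16 (edgeR adjusted p = 0.00895) and the signal carrier Smad5 by 0.59 ± 0.13 (edgeR adjusted p = 0.00475). With the correction for GC content and length the falls were 0.31 for Bmpr1a (edgeR adjusted p = 0.0332) and 0.24 for Smad5 (edgeR adjusted p = 0.0662).

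Of 11 tested heme synthesis genes, 1 rose and 1 fell in the Usp5 knockout, and 1 rose and 2 fell in the Ythdf1 knockout. These are 18.2% in the Usp5 knockout, beside 19.8% of all tested genes, and 27.3% in the Ythdf1 knockout, beside 46.5%. Alad, the enzyme that makes porphobilinogen, fell to 104 ± 14.1 CPM in the Usp5 knockout, against 212 ± 16.5 CPM in the control (-1.02 ± 0.11, edgeR adjusted p = 0.000184). Fech, which inserts iron into the porphyrin ring, rose there by 0.43 ± 0.11 (edgeR adjusted p = 0.0249), a call lost without control replicate 1 or 2 or Usp5 knockout replicate 2 or 3 (0.36 to 0.41). Without control replicate 3, 1 heme synthesis gene rose and 4 fell in the Usp5 knockout. In the Ythdf1 knockout Uros rose by 0.61 ± 0.14 (edgeR adjusted p = 0.00564), and Abcb10 and Cpox fell by 0.28 ± 0.09 (edgeR adjusted p = 0.0264) and 0.26 ± 0.09 (edgeR adjusted p = 0.0454). The Abcb10 call was lost without control replicate 1 (-0.24) or 2 (-0.25) or Ythdf1 knockout replicate 2 (-0.27). The Cpox call was lost without control replicate 2 (-0.28) or 3 (-0.19) or Ythdf1 knockout replicate 1 (-0.22) or 3 (-0.28), and after the correction for GC content and length (-0.06).

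Of 4 tested genes from the list of other transcripts reported to carry an iron-responsive element, 1 was called in the Usp5 knockout and 3 in the Ythdf1 knockout, where 19.8% and 46.5% of all tested genes were called. Epas1, which encodes the hypoxia-inducible factor HIF-2α, rose in both knockouts, by 0.84 ± 0.08 in the Usp5 knockout (edgeR adjusted p = 4.22e-05) and by 0.53 ± 0.08 in the Ythdf1 knockout (edgeR adjusted p = 0.000366). Cdc42bpa and Cdc14a fell in the Ythdf1 knockout, by 0.76 ± 0.12 (edgeR adjusted p = 0.000603) and 0.54 ± 0.17 (edgeR adjusted p = 0.0237). With the correction for GC content and length these falls were 0.31 (edgeR adjusted p = 0.00218) and 0.19 (edgeR adjusted p = 0.195). The Cdc14a call was also lost without control replicate 3 (-0.39) or Ythdf1 knockout replicate 1 (-0.54) or 3 (-0.49).

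The genes whose profile over the 9 samples was most like that of each iron gene were found by Pearson correlation of log2 CPM, which rests largely on the differences between the 3 groups and is given as a description. Nearest to Fth1 were Ppp1r11 (r = 0.991), Gltp (0.991) and Vegfa (0.987), and nearest to Ftl1 were Rplp0 (0.996), Uap1l1 (0.996) and Phlda3 (0.994). Tfrc was most like Nek2 (0.996), Pdha1 (0.995) and Mre11a (0.994), and Ireb2 most like Psme4 (0.997), Prr14l (0.995) and Mib1 (0.992). Slc40a1 was most like Psmd2 (0.990), Poglut2 (0.990) and Acsl5 (0.989), and Trf most like Hyou1 (0.989), Coa3 (0.984) and Sult1b1 (0.980). For Slc11a2 the nearest were Tmppe (0.989), Hdac5 (0.969) and AI597479 (0.959), for Aco1 Ptcd1 (0.979), Gtf2h4 (0.976) and Pomgnt1 (0.975), and for Steap3 Psmc1 (0.966), Clta (0.962) and Phrf1 (0.961). Among the iron genes themselves, r over these 9 samples was below 0 for Fth1 with Ireb2 (-0.957) and with Tfrc (-0.924), and above 0 for Tfrc with Ireb2 (0.940) and with Slc40a1 (0.924) and for Trf with Aco1 (0.911).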

How the data were processed

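Per the submitters' processing notes, fastp 0.23.2, STAR 2.7.10a, Salmon 1.9.0 and the GRCm39 genome were used, with no roles or order. The table the authors deposited holds an estimated count for every gene and library. Each estimated count is a whole number, made by the authors from the reads with tools that the submitters' processing notes name, and gene lengths stand beside them. Not given in the sources used here are the annotation release and the use of strand. Overlapping antisense genes can therefore share reads. Column names equal the sample descriptions.

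The test was edgeR 4.0.16 under R 4.3.3 (TMM scaling, filterByExpr, glmQLFit and glmQLFTest on group, all 9 samples together), with Benjamini-Hochberg adjustment over 13661 genes. The SE of a log2 fold change was derived as its size divided by the square root of the test's F statistic. Intervals are at the 95% level from this SE and the fit's t quantiles. The test was also run on simulated counts that held known changes. These were drawn as independent samples from the spread that the same fit estimated. The run therefore cannot speak to technical repeats or to a library that departs from its group. Reference transcripts gave the hairpins and the GC content, known for 13642 tested genes. TPM were computed with the deposited lengths. The iron genes, the 6 lists and the tests were chosen with earlier results of these data known. The named list genes are up to 2 called genes per list, direction and knockout with the largest log2 fold change and at least 1 CPM in the higher group. Some genes that meet this rule are not reported here. Likeness to an iron gene was taken over tested protein-coding genes, 3 per gene, from log2 CPM with a prior count of 2. Alternatives tried were DESeq2 1.42.0, limma-voom (limma 3.58.1), RLE scaling, scaling by library size only, no low-count filter and a stricter one, only the groups compared, a replicate block, removal of trends on GC content and length, an adjusted p under 0.01, and leaving out each sample.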

Additional observations from a re-analysis of the deposited data

How the results depend on the processing

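The Ythdf1 knockout calls of Fth1, Tfrc, Slc40a1, Slc11a2 and Ireb2 held in all 18 alternatives to the fit at an adjusted p under 0.05, and 7 iron genes were called there with RLE scaling, DESeq2 and limma-voom. In the Usp5 knockout, 3 iron genes were called under these 3 settings, 0 at an adjusted p under 0.01, and 0 to 4 when 1 sample was left out. All genes called in the Usp5 knockout, 2700, came to 1756 with only the groups compared, 1305 at an adjusted p under 0.01, and 1494 to 4371 without 1 sample. List genes called there numbered 15 to 34 without 1 sample, in place of 22. Between the knockouts an adjusted p under 0.01 left 4363 of 6627 genes and 37 of 56 list genes. Scaling by library size alone moved the median log2 fold change of all genes by -0.08 in the Usp5 knockout and -0.14 in the Ythdf1 knockout, gave 1026 higher and 1833 lower genes in the Usp5 knockout (1361 and 1339 with TMM) and 2159 and 4185 in the Ythdf1 knockout (3231 and 3119 with TMM), and left 5 iron genes called in the Ythdf1 knockout. Among the iron genes, signs turned for 3 uncalled values near 0: Trf in the Usp5 knockout was -0.0552 by library size alone and -0.0649 to 0.0863 with 1 sample left out (below 0 without control replicate 3 or Usp5 knockout replicate 3); Aco1 there was -0.0787 by library size alone, -0.00198 with no low-count filter and -0.0694 to 0.04905 with 1 sample left out (below 0 without the same samples); and Steap3 in the Ythdf1 knockout was -0.0431 with the GC and length correction. The cause of these changes was not tested. Same-numbered samples did not deviate together (correlations of -0.257 to 0.298), so the numbers were not taken as pairs. With a replicate block 2346 genes were called in the Usp5 knockout, 6198 in the Ythdf1 knockout and 6458 between them, with 2, 7 and 6 iron genes and 21, 46 and 55 list genes. Fth1 in the Usp5 knockout was then 0.36 (edgeR adjusted p = 0.0732). A fit of only the groups compared also ended the calls of Steap1 (adjusted p = 0.0545), Fech (0.0629) and Fdx1 (0.0867) in the Usp5 knockout. Hamp had too few counts to be tested, with 0 to 3 counts per group.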
